A study of Homo sapiens with 6 samples.

Results

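Caspases are the proteases of apoptosis, and the transcripts of 5 of them, CASP2, CASP6, CASP8, CASP9 and CASP10, were examined with 3 partners, the adaptors FADD and APAF1 and the inhibitor CFLAR. These 8 genes were taken by name from a table of 27918 genes and loci measured by RNA-seq in HCT-116 cells, an established human colorectal carcinoma line. All 8 were found, each in a row of its own that carried no other gene symbol. A GapmeR is an antisense oligonucleotide that directs RNase H to cut its target RNA. Cells received 10 nM of a negative control GapmeR (GapNC, 3 libraries) or of a GapmeR against the long noncoding RNA CASC9 (GapC9, 3 libraries), and poly(A) RNA was sequenced. The methods of the study give 48 h after transfection and its results 24 h. All 6 libraries come from 1 cell line and 1 GapmeR per group, so an action of the oligonucleotide beyond CASC9 cannot be told apart from its action on CASC9.

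Caspases wait in the cell as inactive precursors. In the extrinsic route, a death receptor binds FADD, FADD gathers caspase-8 or caspase-10, and c-FLIP, the product of CFLAR, competes with them for FADD. In the intrinsic route, cytochrome c released from mitochondria makes APAF1 assemble into the apoptosome, which activates caspase-9. Both routes end in executioner caspases, of which caspase-6 is one, while caspase-2 has a platform of its own, the PIDDosome. Activation is by cleavage and assembly of proteins, which transcript levels do not measure.

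The targeted RNA was barely detected. The GapNC libraries gave CASC9 0, 0.0108 and 0 FPKM, and the libraries labelled GapC9 gave it 0.0528, 0.107 and 0 FPKM, so it was not lower there and the labels could not be checked with it. By RT-qPCR, the study itself reported less CASC9 in HCT-116 cells given the GapmeR against it. FPKM scales fragments to the length of the transcript and to the mapped fragments of the library. Depth was alike in the 6 libraries, at about 22.8 to 24.4 M fragments if the commonest step between low values is 1 fragment. All 6 epithelial markers averaged at least 1 FPKM, with sums of 1021 to 1405 in GapNC and 997 to 1261 in GapC9. Among the intestinal markers CDX2 lay at 1.59 to 3.79 FPKM, while CDX1, VIL1 and LGALS4 stayed below 0.1. The defining markers of leukocytes (PTPRC, CD3E) and endothelium (PECAM1, VWF) also stayed below 0.1, but CD68, COL1A1 and COL3A1 did not, and the 7 markers of other cell types found summed to 54.4 to 61.5 FPKM in GapNC and 54.2 to 58.7 in GapC9. In GapNC replicate 1, genes rich in G and C stood high, with a Spearman correlation across 10117 genes of 0.618 between GC content and a gene's deviation from its mean, against -0.384 to 0.022 in the other 5 libraries.

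CASP2, the most abundant on average, stood 78.5-fold to 159-fold above CASP10, the rarest, within a library, and was the highest member in 5 of the 6. Ordered by mean FPKM over the 6 libraries, CASP2 (13.2) was followed by FADD (7.46), CASP6 (4.68), CASP8 (3.43), CFLAR (1.37), APAF1 (1.28), CASP9 (0.929) and CASP10 (0.105). Only 2 steps in this order were free of overlap between the ranges of the libraries, the step from CASP8 to CFLAR and the step from CASP9 to CASP10. FADD and CASP6 could not be ordered, since FADD was the higher one in 3 of the 6 libraries, drawn from both groups. CFLAR was above APAF1 in 3 of the 6 as well, but these were the 3 GapC9 libraries. APAF1 was the higher one in every GapNC library, in replicate 1 by only 1.20 against 1.17 FPKM. FPKM is scaled to transcript length but not to GC content or to the choice of listed transcripts, so these levels compare only roughly between genes.

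No member passed the test across all genes. The limma fit to log2(FPKM + 0.1) gave 0 of 8 members an adjusted p under 0.05, where 1.89% of the 16028 genes and loci tested were called higher in GapC9 and 5.1% lower. The fold and p thresholds of the study, which used edgeR, were applied here to the ratio of mean FPKM and the unadjusted limma p. A ratio of at least 2 or at most 0.5 with a p under 0.05 was also met by 0 of 8 members, against 6.42% of all genes. At an unadjusted p under 0.05 alone, limma gave 4 of 8 members, CASP8 and CFLAR higher and CASP9 and APAF1 lower, against 25.9% of all genes. All 8 members had the 0.1 FPKM on average that the fit required, CASP10 only through its GapC9 values. Their median log2 fold change, with CASP10 included, was -0.0080, beside -0.076 over all genes tested. Without CASP10 the middle value was that of CASP2, which lay below the median of all genes. The side of that median on which the members stood therefore rested on CASP10, and no conclusion is drawn from it. In these bulk libraries, fewer cells with a transcript and less of it per cell cannot be told apart.

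The apical caspase of the extrinsic route, CASP8, was measured at 2.87, 2.96 and 2.98 FPKM in GapNC and at 3.92, 3.55 and 4.33 FPKM in GapC9. The 3 GapNC values lay close together and below every GapC9 value. The means were 2.94 ± 0.0569 and 3.93 ± 0.389 FPKM (SD, n = 3 each), a fitted log2 fold change of 0.40 (SE 0.12, 95% interval 0.12 to 0.69, adjusted p = 0.0964). The gene lies on the plus strand of chromosome 2 (chr2:201233443-201287711, GRCh38), and no other annotated gene overlapped it.

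CFLAR encodes c-FLIP, a relative of caspase-8 without protease activity. Its values were 1.17, 1.10 and 0.811 FPKM in GapNC and 1.44, 2.23 and 1.46 FPKM in GapC9. The groups did not overlap, though GapC9 replicate 2 stood well above the other 2 GapC9 libraries. The means were 1.03 ± 0.190 and 1.71 ± 0.452 FPKM (SD, n = 3 each), with a log2 fold change of 0.67 (SE 0.23, 95% interval 0.11 to 1.23, adjusted p = 0.138). Leaving out GapC9 replicate 2 gave 0.47 (adjusted p = 0.303). CFLAR-AS1, annotated on the opposite strand inside the gene, was listed at 0.124 to 0.189 FPKM, and whether strand was used in counting is not given in the sources used here.

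CASP10, the paralog of CASP8, was the rarest member. It was listed at 0.0779, 0.0941 and 0.0978 FPKM in GapNC and at 0.143, 0.111 and 0.107 FPKM in GapC9. The groups did not overlap, but the gap between them was smaller than the spread within GapC9. The means were 0.0899 ± 0.0106 and 0.12 ± 0.0199 FPKM (SD, n = 3 each), and the log2 fold change, damped by a pseudocount as large as the values, was 0.21 (SE 0.22, 95% interval -0.33 to 0.76, adjusted p = 0.590). The values would stand for about 10.5 to 19.6 fragments a library if all came from the longest listed transcript and the commonest step between low values is 1 fragment.

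CFLAR, CASP10 and CASP8 are neighbours on the plus strand of chromosome 2, in that order, with CFLAR at chr2:201116104-201176687 and CASP10 at chr2:201182881-201229406 (GRCh38). CASP8 and CFLAR had no overlap between the groups, with GapC9 the higher, where 12.6% of all genes tested showed that pattern in that direction. CASP10 is not set against that share, since its GapC9 values are what kept it in the fit. The windows around the most upstream RefSeq start of CASP8 (chr2:201233213-201233512) and of CFLAR (chr2:201118466-201118765), from 250 bases before to 50 after it (GRCh38.p14, plus strand), are shown because these neighbours had the higher GapC9 values. Capitals mark the GC box GGGCGG, the element bound by SP factors, searched on both strands as GGGCGG and CCGCCC.

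CASP8: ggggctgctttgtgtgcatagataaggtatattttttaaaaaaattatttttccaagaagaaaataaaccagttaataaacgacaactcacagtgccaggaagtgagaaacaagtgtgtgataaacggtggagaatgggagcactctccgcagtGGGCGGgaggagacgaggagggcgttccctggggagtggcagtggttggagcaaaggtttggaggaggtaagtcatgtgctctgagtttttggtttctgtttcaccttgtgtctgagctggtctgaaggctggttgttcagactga
CFLAR: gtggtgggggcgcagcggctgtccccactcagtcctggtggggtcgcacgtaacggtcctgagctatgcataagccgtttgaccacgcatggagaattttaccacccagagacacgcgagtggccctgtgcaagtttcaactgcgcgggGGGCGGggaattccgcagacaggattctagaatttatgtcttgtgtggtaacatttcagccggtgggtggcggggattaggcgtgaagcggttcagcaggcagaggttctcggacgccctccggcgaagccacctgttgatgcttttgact

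Each of these windows held 1 GC box, the CASP8 window at 46.3% G and C with 6 CpG dinucleotides and the CFLAR window at 58.7% with 21. Among all 35116 windows the median was 58.7% G and C with 14 CpG dinucleotides. RefSeq windows were matched for 7 of the 8 members, 14 in all, and CASP10 was not among them. A GC box stood in 9 of these 14 windows, against 45.0% of all windows. The CCAAT box (CCAAT) stood in 4 of 14 (34.6% of all), the TATA box (TATAAA) in 1 of 14 (11.5%), and the E2F letters TTTGGCGC (0.652%) and the cAMP response letters TGACGTCA (1.85%) in 0 of 14. These matches are descriptions of the letters in each window.

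FADD, the adaptor that joins death receptors to caspase-8, varied more between libraries of a group than any other member. It was measured at 15.3, 2.94 and 10.9 FPKM in GapNC and at 2.66, 10.7 and 2.20 FPKM in GapC9. The values fell into a high set, GapNC replicates 1 and 3 and GapC9 replicate 2, and a low set with the other 3 libraries, and the highest was 6.97-fold the lowest. The means were 9.74 ± 6.29 and 5.17 ± 4.76 FPKM (SD, n = 3 each), with a log2 fold change of -0.97 (SE 0.82, 95% interval -2.98 to 1.04, adjusted p = 0.50). Leaving out GapNC replicate 2 gave -1.67 and leaving out GapC9 replicate 2 gave -1.67, while leaving out GapNC replicate 1 gave -0.50, all short of the threshold. The values would stand for roughly 95.7 to 644 fragments if the commonest step between low values is 1 fragment. The 1 annotated transcript has 1841 bases (chr11:70203163-70207390, plus strand, GRCh38). The antisense gene AP000879.1, which overlaps 1100 bases of FADD, was listed at no more than 0.195 FPKM.

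In the intrinsic route, CASP9 was measured at 1.32, 1.10 and 1.01 FPKM in GapNC and at 0.704, 0.675 and 0.768 FPKM in GapC9. Every GapC9 value lay below every GapNC value. The means were 1.14 ± 0.161 and 0.716 ± 0.0475 FPKM (SD, n = 3 each), with a log2 fold change of -0.60 (SE 0.15, 95% interval -0.97 to -0.23, adjusted p = 0.0718). This was the smallest p of the 8 members, at rank 1685 of the 16028 genes tested. The highest value came from GapNC replicate 1, the library in which GC-rich genes stood high. The longest listed transcript has 52.8% G and C in CASP9 and 58.6% in FADD, which was also highest in that library. The part of GC content in these values was not tested. The CASP9 log2 fold change was -0.50 without GapNC replicate 1 (adjusted p = 0.111) and -0.45 after a GC correction (adjusted p = 0.0537).

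APAF1, the scaffold of the apoptosome, was measured at 1.20, 1.83 and 2.01 FPKM in GapNC and at 0.844, 1.08 and 0.742 FPKM in GapC9. Again the groups did not overlap, though the lowest GapNC value lay close to the highest GapC9 value. The means were 1.68 ± 0.425 and 0.889 ± 0.173 FPKM (SD, n = 3 each), with a log2 fold change of -0.83 (SE 0.24, 95% interval -1.41 to -0.25, adjusted p = 0.0945). APAF1 passed the adjusted threshold after the GC correction (-0.86, adjusted p = 0.0416), and it met the thresholds of the study when GapNC replicate 1 (-1.04, adjusted p = 0.0534) or GapC9 replicate 2 (-0.97, adjusted p = 0.159) was left out.

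CASP9 and APAF1 shared a lower level in all GapC9 libraries, a pattern seen in 21.6% of all genes tested. CASP9 lies on the minus strand of chromosome 1 (chr1:15490832-15526534) and APAF1 on the plus strand of chromosome 12 (chr12:98645141-98735433, both GRCh38). The windows around their most upstream RefSeq starts, chr1:15524741-15525040 on the minus strand and chr12:98645040-98645339 on the plus strand (GRCh38.p14), are shown for that shared direction, with GC boxes on either strand in capitals.

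CASP9: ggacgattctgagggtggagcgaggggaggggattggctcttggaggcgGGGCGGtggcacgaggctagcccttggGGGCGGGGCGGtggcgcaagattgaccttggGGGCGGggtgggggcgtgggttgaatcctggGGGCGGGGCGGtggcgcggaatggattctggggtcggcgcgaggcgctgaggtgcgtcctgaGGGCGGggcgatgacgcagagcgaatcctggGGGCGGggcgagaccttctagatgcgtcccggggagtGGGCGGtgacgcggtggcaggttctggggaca
APAF1: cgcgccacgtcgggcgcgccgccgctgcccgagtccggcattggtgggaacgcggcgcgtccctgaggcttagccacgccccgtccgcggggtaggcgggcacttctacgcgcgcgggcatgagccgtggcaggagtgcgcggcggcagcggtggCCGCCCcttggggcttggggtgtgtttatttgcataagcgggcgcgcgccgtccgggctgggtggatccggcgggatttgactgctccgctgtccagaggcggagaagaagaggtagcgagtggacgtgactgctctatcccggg

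Both windows had 71.3% G and C. The CASP9 window held 9 GC boxes, counted with overlaps, and 30 CpG dinucleotides, and the APAF1 window 1 GC box and 42 CpG dinucleotides.

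CASP6, an executioner that cleaves nuclear lamins, was measured at 4.94, 4.91 and 3.68 FPKM in GapNC and at 4.72, 4.50 and 5.33 FPKM in GapC9. The groups overlapped, with means of 4.51 ± 0.717 and 4.85 ± 0.429 FPKM (SD, n = 3 each). The log2 fold change was 0.11 (SE 0.16, 95% interval -0.27 to 0.49, adjusted p = 0.690), and it was -0.025 without GapNC replicate 3. CASP6 (chr4:109688622-109703583, minus strand, GRCh38) overlaps MCUB on the opposite strand by 105 bases. MCUB was listed at 3.59, 5.04 and 4.82 FPKM in GapNC and at 2.27, 1.82 and 2.33 FPKM in GapC9, and the part of shared reads in the CASP6 values was not tested.

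CASP2, the caspase of the PIDDosome, was measured at 11.9, 13.9 and 15.6 FPKM in GapNC and at 11.3, 13.4 and 13.1 FPKM in GapC9. The groups overlapped, with means of 13.8 ± 1.84 and 12.6 ± 1.15 FPKM (SD, n = 3 each). The log2 fold change was -0.13 (SE 0.14, 95% interval -0.47 to 0.21, adjusted p = 0.602) and turned to 0.017 under median scaling, which moved the median of all genes up by 0.14. The gene lies at chr7:143288215-143307696 on the plus strand (GRCh38). On the same 2 conditions as for CASP10, its values would stand for about 1496 to 2194 fragments a library, the most of any member.

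**Figure D1:**
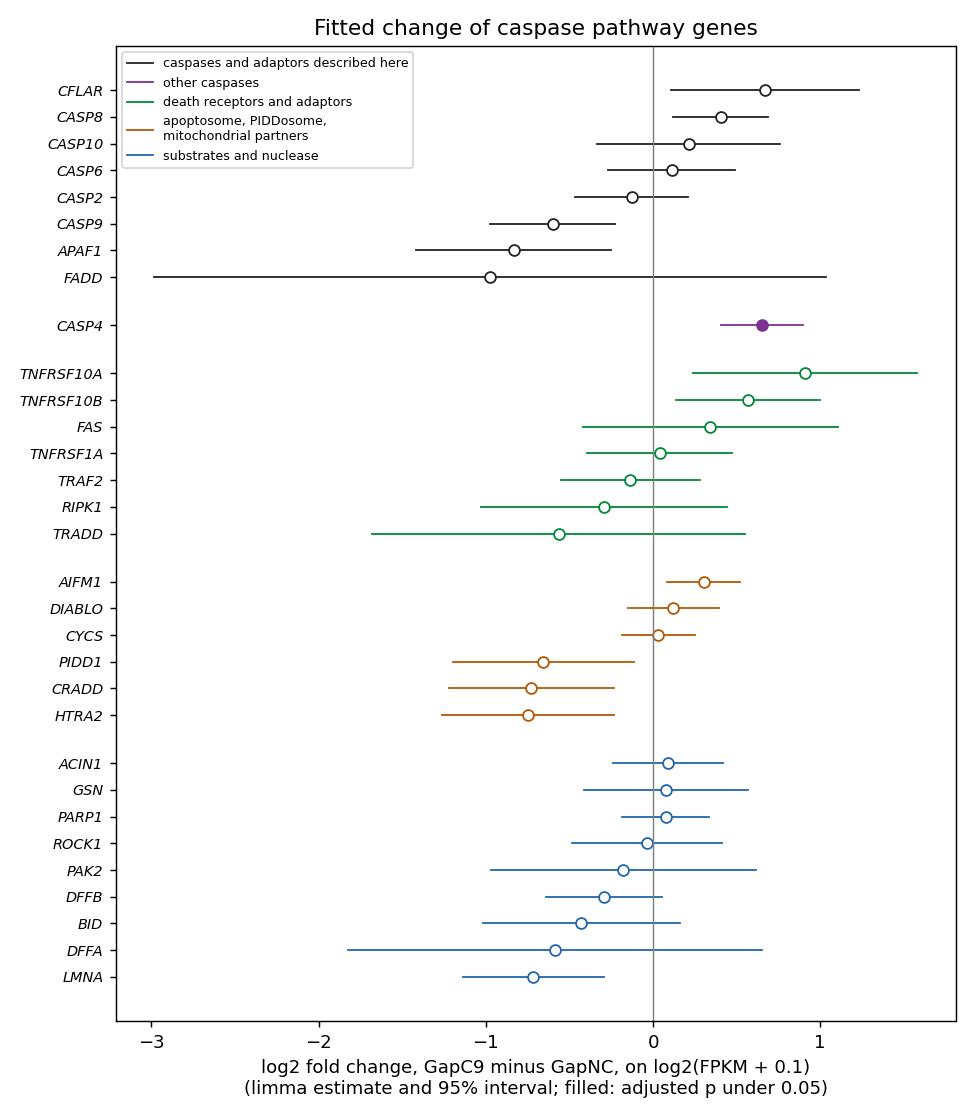
Fitted log2 fold changes (GapC9 minus GapNC, on log2(FPKM + 0.1)) with 95% intervals from limma for the 8 members and the 23 tested genes of the other caspase pathway lists, grouped by role, with filled points for an adjusted p under 0.05. CASP4 is the only filled point at 0.65, and the interval of FADD, -2.98 to 1.04, is the widest.

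Ratios within a library do not move with its scaling. The CFLAR to CASP8 ratio was 0.406, 0.372 and 0.272 in GapNC and 0.367, 0.628 and 0.337 in GapC9. The groups overlapped, with a log2 difference of 0.31, and the exact two-sided permutation test over the libraries gave p = 0.6. The CASP10 to CASP8 ratio was 0.0271, 0.0318 and 0.0328 in GapNC and 0.0366, 0.0312 and 0.0248 in GapC9, with a log2 difference of 0.00060 (exact permutation p = 1.0). APAF1 to CASP9 was 0.910, 1.67 and 1.99 in GapNC and 1.20, 1.60 and 0.967 in GapC9, with a log2 difference of -0.23 (exact permutation p = 0.7). None of the 3 ratios differed beyond the spread of the libraries, and all 3 had an adjusted p of 1.0. With 3 libraries against 3 the smallest p such a permutation test allows is 0.1.

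The ratio of CASP8 to CASP9 was taken after the values were seen, because these genes stood apart in opposite directions, and it is given with no test. It was 2.18, 2.69 and 2.96 in GapNC and 5.57, 5.26 and 5.63 in GapC9. The ratio was higher in all 3 GapC9 libraries, with means of 2.61 ± 0.398 and 5.49 ± 0.201 (SD, n = 3 each) and a log2 difference of 1.08. Genes that stand apart in opposite directions give a separated ratio by construction. After the GC correction the fitted log2 fold changes were 0.39 for CASP8 and -0.45 for CASP9.

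Of the other caspase genes, CASP4 was tested, an inflammatory caspase that senses bacterial lipopolysaccharide in the cytosol. The row of CASP4 lists 12 transcripts, of which 11 matched the annotation of CASP4. What the unmatched transcript adds to the values of the row was not tested. CASP4 was measured at 2.48, 2.69 and 2.62 FPKM in GapNC and at 4.17, 4.20 and 4.02 FPKM in GapC9. It rose in GapC9 from 2.60 ± 0.103 to 4.13 ± 0.0969 FPKM (SD, n = 3 each), a log2 fold change of 0.65 (SE 0.10, 95% interval 0.40 to 0.90, adjusted p = 0.0273). The adjusted p ran from 0.0172 to 0.117 over 17 alternatives and stayed under 0.05 in 11 of them. It was lost with a replicate block (0.0647) and without any one of GapNC replicates 2 and 3 or the 3 GapC9 replicates (0.0722 to 0.117), where far fewer genes of the whole table were called. CASP5 averaged under 0.1 FPKM and was not tested, and CASP1 and CASP14 were not analysed here.

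Across the pathway lists, 23 of 28 genes were tested, 1 (CASP4) was called higher and 0 lower, and their median log2 fold change was -0.036. By the unadjusted limma p under 0.05 there were 4 higher and 4 lower of the 23, against 9.09% higher and 16.8% lower of all 16028 genes and loci tested. Among the 7 tested death receptor genes and their adaptors, 0 were called by the adjusted p. The receptors of TRAIL, TNFRSF10A (0.91, adjusted p = 0.106) and TNFRSF10B (0.57, adjusted p = 0.112), were the only ones there with an unadjusted p under 0.05, and the row of TNFRSF10A also carries the symbol of AC100861.2. Among the 6 apoptosome, PIDDosome and mitochondrial partners, 0 were called and the median was -0.31. With an unadjusted p under 0.05 stood AIFM1 (0.30, adjusted p = 0.0989), the mitochondrial protease HTRA2 (-0.75, adjusted p = 0.0903) and the PIDDosome genes CRADD (-0.73, adjusted p = 0.0886) and PIDD1 (-0.66, adjusted p = 0.133). Among the 9 substrates and the nuclease, 0 were called, the median was -0.18, and LMNA, which encodes lamins A and C, had the smallest p (-0.72, adjusted p = 0.0638).

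The pattern of CASP9 over the 6 libraries was most like those of ANKLE2 (Pearson r = 0.997), EMD (r = 0.996) and the joined row of TMEM256-PLSCR3, PLSCR3 and TMEM256 (r = 0.994), among 10033 genes that averaged 1 FPKM or more and had no value at 0. ANKLE2 was measured at 5.71, 5.18 and 4.68 FPKM in GapNC and at 3.62, 3.52 and 3.84 FPKM in GapC9, in the same order of libraries as CASP9. In all, 18 genes reached r = 0.99. These points share their libraries, so the values are a description and carry no p.

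**Figure D2:**
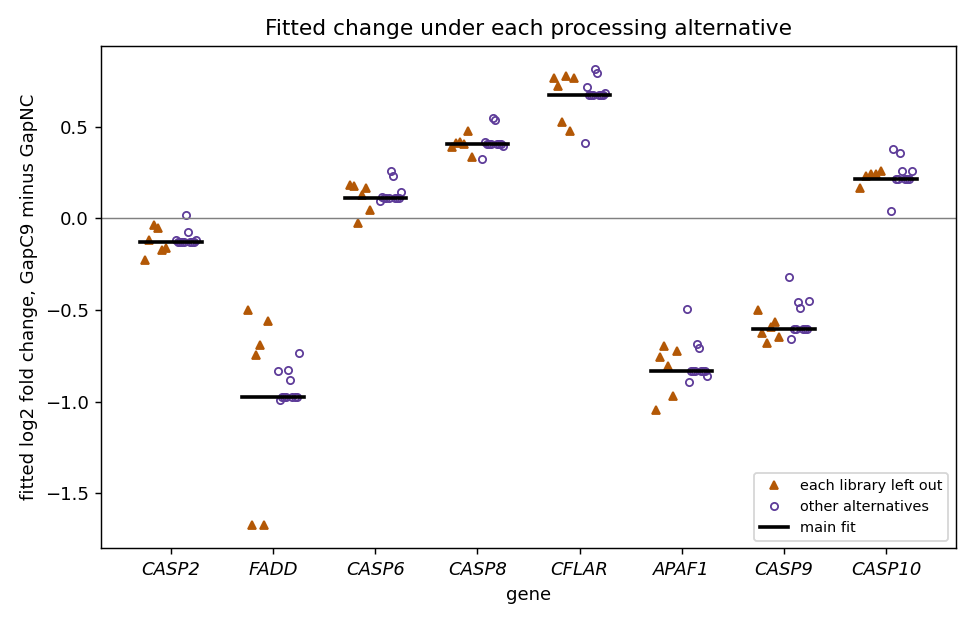
Fitted log2 fold change of each member (black bar) beside its values with each library left out (triangles) and under the other alternatives (circles). CASP8, CFLAR and CASP10 stay above 0 and CASP9, APAF1 and FADD below 0 throughout, CASP2 and CASP6 cross 0, and FADD ranges from -1.67 to -0.50.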

How the data were processed

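RNA-seq values of 6 HCT-116 libraries (3 GapNC, 3 GapC9) were used, grouped by their labels. The authors deposited FPKM values, scaled to transcript length and to the mapped fragments of each library, in 1 table of 27918 genes and loci. The submitters' processing notes name HISAT2 2.0, StringTie 1.3.0 and Bowtie 0.12.2. They list a mouse build, and the human build is not given in the sources used here. StringTie can join neighboring genes, and FPKM carries no counting error.

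In R 4.3.3, limma 3.58.1 (lmFit, eBayes with a mean-variance trend, two-sided) was fitted to log2(FPKM + 0.1) of all 16028 rows that averaged 0.1 FPKM or more, with Benjamini-Hochberg adjustment over all of them. No count model was fitted. The fit was tested on simulated data. Ratios were compared by exact permutation tests in scipy 1.17.1, with adjustment over the 3 planned ratios. Nothing in the labels says that replicates came from separate cultures, so p-values measure only the spread between these libraries. Annotation was GENCODE 29 (GRCh38), matched through listed transcripts, and promoter windows came from RefSeq (GRCh38.p14).

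The members and lists were chosen with earlier results of these data known. Named were all 8 members, any listed gene past a threshold, and the 3 genes most like the member with the smallest p. List genes with an unadjusted p under 0.05 were also named, after their values were seen. Some caspase genes are not reported here. The lists were other caspases, death receptors with ligands and adaptors, apoptosome, PIDDosome and mitochondrial partners, and substrates with the nuclease. Alternatives were pseudocounts of 1 and 0.01, 3 filters, median scaling, quantile normalization, 2 variance models, a replicate block, a GC correction (lowess, span 0.3) and each library left out.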

Additional observations from a re-analysis of the deposited data

How the results depend on the processing

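The count of 0 members called held under every alternative but the GC correction, which gave 1 (APAF1). By the thresholds of the study the count was 0 to 1 with each library left out. The 1 called gene of the pathway lists became 2 under median scaling (AIFM1, CASP4), 2 under quantile normalization (CASP4, LMNA), 4 under the GC correction (AIFM1, CASP4, LMNA, TNFRSF10B), 0 with the replicate block and 0 to 1 with each library left out. The replicate block left 0 of all 16028 genes called and changed no call on a member. Deviations of same-numbered libraries correlated at 0.0970, 0.0398 and 0.0243. Those of differently numbered libraries ran from -0.0930 to 0.0578, and only GapNC replicate 3 with GapC9 replicate 2 (0.0578) lay above 0. These weak correlations do not settle whether the numbers are pairs, and the main fit did not take them as pairs. Over all genes the main 303 higher and 817 lower calls became 483 and 427 under median scaling, 347 and 516 under quantile normalization, 1089 and 1228 under the GC correction, 146 and 346 without a filter, 241 and 573 without GapNC replicate 1, and at most 35 and 70 without any other library.

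CASP2 turned to 0.017 under median scaling, and CASP6 ranged from -0.025 (without GapNC replicate 3) to 0.18 with each library left out. The log2 ratio of CASP10 to CASP8 became -0.19 with a pseudocount of 0.1, which is as large as the CASP10 values and small beside those of CASP8. With each library left out it ranged from -0.13 to 0.15. The cause of the spread between leave-one-out fits was not tested. Of the other values, CASP10 was lost to the filter at 1 FPKM and without GapC9 replicate 1, and CASP9 to the filter at 1 FPKM. No counting error can be given from FPKM, and the log2 fold change of CASP10 ran from 0.040 to 0.38 between pseudocounts of 1 and 0.01.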

Other observations

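The split of FADD across the groups was followed after its values were seen. Among 10032 genes that averaged 1 FPKM or more and had no value at 0, the patterns most like that of FADD over the 6 libraries were those of KDELR1 (Pearson r = 0.986), a receptor that returns proteins to the endoplasmic reticulum, of the tetraspanin TSPAN14 (r = 0.984) and of the joined row of RFFL, AC004223.3 and RAD51D (r = 0.983). TSPAN14 was measured at 8.53, 2.26 and 6.48 FPKM in GapNC and at 1.96, 5.55 and 2.32 FPKM in GapC9. KDELR1 was measured at 98.8, 54.7 and 91.6 FPKM in GapNC and at 58.8, 83.7 and 55.1 FPKM in GapC9. In both, GapNC replicates 1 and 3 and GapC9 replicate 2 were again the 3 highest libraries. No gene reached r = 0.99 with FADD, and these genes were picked for their likeness, so the values are given with no test.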
